A study of Homo sapiens with 9 samples.

Results

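The keratins KRT7, KRT8, KRT18, KRT19, KRT10, KRT13, KRT23 and KRT80 were taken by name as the simple and suprabasal keratins, and all 8 were found among the 60671 genes listed. They were measured by sequencing of polyadenylated RNA from N/TERT cells, human keratinocytes of the epidermis that telomerase has made immortal. The 9 untreated libraries came from cells in which SGPL1 was knocked out by CRISPR (KO), cells that overexpressed SGPL1 (OE) and cells of WT genotype (control), with 3 libraries in each group. SGPL1 encodes the lyase that breaks down sphingosine 1-phosphate, and the series concerns the ichthyosis that accompanies its insufficiency. The libraries of a group are called biological replicates, but the number of clones or cultures behind them, the promoter of the overexpressed gene and any vector in control cells are not given in the sources used here. For that reason a p-value here speaks only of the spread between these libraries.

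Keratins build the intermediate filaments of epithelial cells as obligate pairs of a type I and a type II protein. Simple epithelia use KRT8 with KRT18, and ducts and glands add KRT7 and KRT19. In stratified epithelia the dividing basal layer holds KRT5 with KRT14. Cells that leave it switch to KRT1 with KRT10 in the epidermis, or to KRT4 with KRT13 in the moist linings of mouth and oesophagus. KRT80 is a type II keratin of differentiating cells that lies near desmosomes, and KRT23 is a type I keratin. Cultured keratinocytes are known to carry some KRT8 and KRT18 although normal epidermis has little of either.

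Gene counts summed to between 6317564 and 9410555 in the KO libraries, between 8773822 and 13330479 in the OE libraries and between 8730711 and 9251703 in the control libraries. A count of 3 equals 0.225 to 0.475 CPM of the raw library totals, depending on the library. CPM are counts scaled to a common library total, and elsewhere the totals carry the TMM scaling unless called unscaled. SGPL1 itself was at 58.8, 58.3 and 61.6 CPM in KO, 1132, 1104 and 929 CPM in OE, and 83.9, 95.1 and 98.3 CPM in control libraries, so the groups stood apart in the labelled directions. Keratinocyte markers, 10 of 10 tested, summed to 14510 to 15460 CPM in KO, 26910 to 27760 CPM in OE and 24860 to 25440 CPM in control libraries. Most of this was KRT5 and KRT14, whose values are given below. At an adjusted p under 0.05 (edgeR), 2 of the 10 were higher and 8 lower in KO, and 4 were higher and 1 lower in OE, each against control. Over all genes 51.9% passed in KO and 18.6% in OE. Merkel cells, the KRT8, KRT18 and KRT20 positive cells of epidermis, were sought by 8 markers, of which ATOH1, SOX2, INSM1 and PIEZO2 had no reads and which together summed to at most 4.57 CPM in KO, 3.36 CPM in OE and 2.62 CPM in control libraries. Of 9 gland and luminal markers, AQP5, DCD, PIP, SCGB1D2, SCGB2A2 and ANKRD30A had no reads, and the sums were 112 to 129 CPM in KO, 123 to 143 CPM in OE and 127 to 139 CPM in control libraries. Nearly all of this was the transcription factors FOXA1 and FOXC1. FOXA1 averaged 68.4 CPM in KO, 68.4 CPM in OE and 68.6 CPM in control libraries, and FOXC1 52.4, 61.5 and 62.8 CPM. The 10 fibroblast markers summed to 9.81 to 15.6 CPM in KO, 25.2 to 28.9 CPM in OE and 22.6 to 29 CPM in control libraries. Most of this was COL1A1, at 11.2 CPM in KO, 26.0 CPM in OE and 25.6 CPM in control libraries on average. COL3A1 and LUM had no reads. The 7 melanocyte markers summed to 69.2 to 76.5 CPM in KO, 60.0 to 71.4 CPM in OE and 89.8 to 101 CPM in control libraries. Nearly all of this was MITF, at 71.1 CPM in KO, 62.5 CPM in OE and 94.0 CPM in control libraries on average. TYR, DCT and SOX10 had no reads. The 9 blood, immune or endothelial markers summed to at most 1.79 CPM in any library. Fold changes of KO against control also moved with exon length, with a median log2 fold change of 0.52 in the decile of shortest genes and -0.45 in that of the longest. The part of the marker sums and of this trend in the keratin results was not tested, and fold changes corrected for length and GC content are given for called differences that they move by over 1.5 times or end.

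The genes sit in the 2 keratin clusters of the genome (GRCh38). The type II genes lie on chromosome 12, KRT80 at chr12:52168996-52192014, KRT7 at chr12:52232520-52252186 and KRT8 at chr12:52897187-52949954. The type I gene KRT18 stands beside KRT8, at chr12:52948871-52952906. The remaining type I genes lie on chromosome 17, KRT10 at chr17:40818117-40822614, KRT23 at chr17:40922700-40937646, KRT13 at chr17:41500981-41505705 and KRT19 at chr17:41523617-41528308. KRT8 and KRT18 share 525 exon bases on opposite strands, which is 7.63% of the exon bases of KRT8 and 17.1% of those of KRT18. KRT10 shares 56 exon bases, 2.59% of its own, with the antisense gene KRT10-AS1. The counting names no strand option, so reads in the shared stretches cannot be assigned. KRT18 has 67 annotated pseudogenes, KRT8 has 51 and KRT19 has 5, and the reads counted on these copies came to 0.305%, 0.649% and 0.493% of the reads of the parent gene. No stretch of 150 bases of the longest coding transcript of any of the 8 keratins occurs in another gene, whereas 28.9% of the stretches of 50 bases of KRT18 do.

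One promoter is shown, that of KRT10, which like KRT8 and KRT13 was called in each of the 3 comparisons below. It is given as the 250 bases before the RefSeq start of KRT10, on the minus strand, at chr17:40822615-40822864 of GRCh38.p14.
KRT10 upstream: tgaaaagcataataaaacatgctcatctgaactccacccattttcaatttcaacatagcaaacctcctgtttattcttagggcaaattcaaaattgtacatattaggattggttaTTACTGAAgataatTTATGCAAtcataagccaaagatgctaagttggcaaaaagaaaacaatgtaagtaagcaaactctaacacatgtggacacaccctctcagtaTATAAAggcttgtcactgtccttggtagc
The capitals mark, from left to right, 2 matches to the C/EBP letters TTNNGNAA, beginning at -135 on the opposite strand and at -121 on the strand of the gene, and the TATA box TATAAA beginning at -29. A match to TTNNGNAA on either strand occurs in 33.2% and one to TATAAA in 10.7% of the same windows of all 35114 genes, so the matches describe the window and mark no site of binding. No match to the AP-1 letters TGANTCA, present in 6.57% of windows, was found here. The letters CCAAT, present in 32% of windows, matched on the opposite strand beginning at -143 and are not capitalised. The letters searched for AP-2, Sp1 and ETS sites had no match.

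Per kilobase of exon, KRT13 was by far the most abundant of the 8 in all groups, at 2583 ± 161 CPM per kilobase in KO, 1939 ± 249 in OE and 3157 ± 153 in control libraries (SD, n = 3 each). The next were KRT8, KRT80 and KRT18. In KO libraries KRT8 was at 166 ± 11.4 CPM per kilobase, KRT80 at 117 ± 8.02 and KRT18 at 108 ± 5.50, and the libraries of KRT80 and KRT18 overlapped. In OE libraries KRT80 was at 140 ± 15, KRT8 at 96.7 ± 2.75 and KRT18 at 87.0 ± 12.2 CPM per kilobase, with overlap between KRT8 and KRT18. In control libraries the order was KRT80 at 145 ± 5.28, KRT8 at 118 ± 11.1 and KRT18 at 86.7 ± 4.63 CPM per kilobase, with no overlap. KRT10 came next in each group, at 48.7 ± 7.08 in KO, 20.3 ± 2.41 in OE and 26.1 ± 2.63 CPM per kilobase in control libraries. KRT7, KRT19 and KRT23 were at most 2.47 CPM per kilobase on average in any group. Division by the longest coding transcript instead put KRT8 above KRT80 in all 3 groups. KRT8 has 6881 bases of exon over all its annotated transcripts and 2437 bases in its longest coding transcript, so the order of KRT8, KRT80 and KRT18 depends on the length used.

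**Figure D1:**
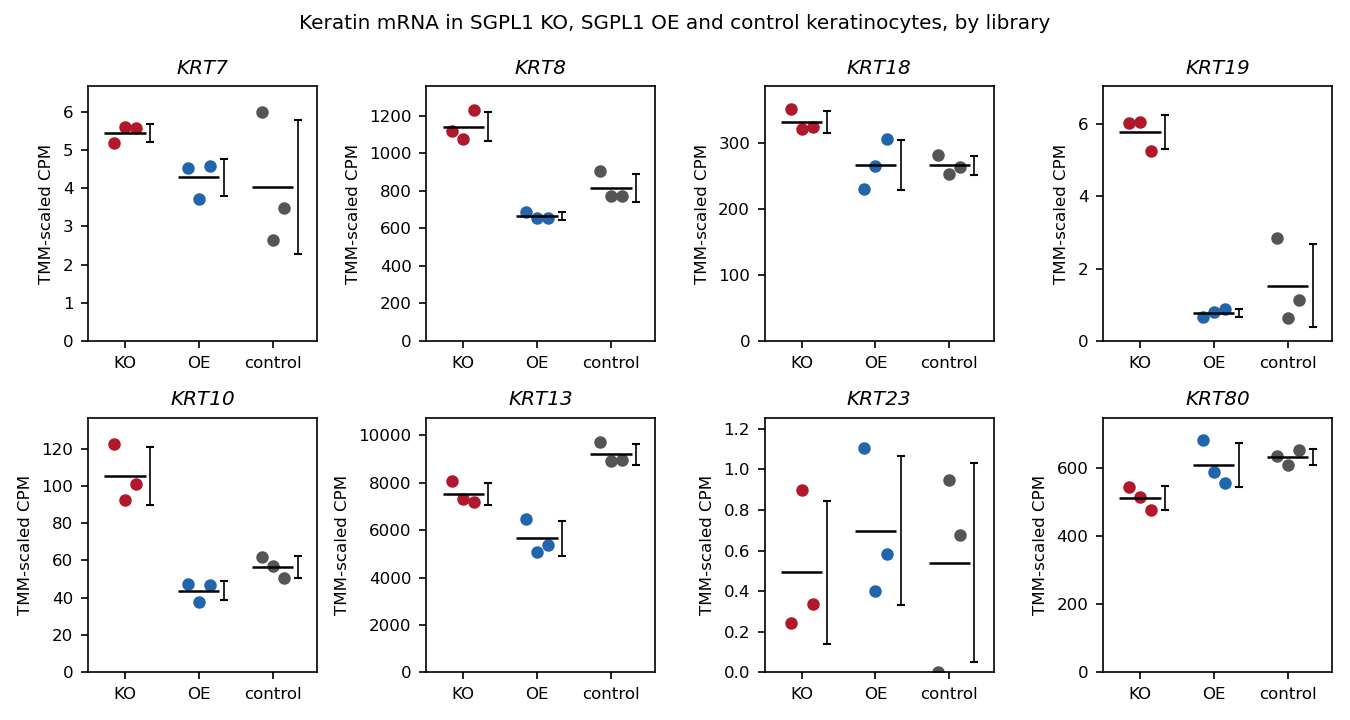
Level of each of the 8 keratins in TMM-scaled CPM, 1 panel per gene, with KO, OE and control libraries side by side. Points are libraries, lines are means and bars are ± SD (n = 3). KRT8, KRT18, KRT19 and KRT10 were highest in KO libraries, and KRT13 was highest in control libraries.

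Against control cells, KO cells had more mRNA for the simple keratins KRT8, KRT18 and KRT19 and for the suprabasal KRT10, and less for KRT13 and KRT80. Of the 7 keratins that passed the filter on low counts, 4 were higher, 2 were lower and KRT7 did not pass the threshold. In the same fit (quasi-likelihood test of edgeR, p-values adjusted after Benjamini and Hochberg), 51.9% of all 13390 tested genes had an adjusted p under 0.05, with 26.0% higher and 25.9% lower, so calls in this comparison were common. After the length and GC correction 45.2% of genes were called. The median log2 fold change of the 7 was 0.43, against -0.005 over all genes. Scaling by library totals without TMM turned the split of calls over all genes to 39.4% higher, against 50.1% higher with TMM, and moved the median of all genes to -0.12. In bulk RNA, fewer cells of a type and less RNA per cell cannot be told apart.

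KRT8, the type II keratin of simple epithelia, was at 1116, 1077 and 1228 CPM in KO libraries, against 903, 770 and 770 CPM in control libraries. Every KO library lay above every control library. The fitted log2 fold change was 0.49 ± 0.08 (SE, adjusted p = 2.47e-05, edgeR), and 0.83 after the length and GC correction (adjusted p = 2.83e-09). With coding transcript length in place of exon length the corrected value was 0.49 (adjusted p = 1.63e-06), so the rise to 0.83 depends on the length used. Its type I partner KRT18 was at 351, 321 and 324 CPM in KO and at 281, 253 and 264 CPM in control libraries. The groups did not overlap, and the log2 fold change was 0.32 ± 0.09 (adjusted p = 0.00468, edgeR). This smaller difference was 0.21 with the correction (adjusted p = 0.0317), and it missed the threshold where coding transcript length replaced exon length (0.08, adjusted p = 0.366) and without TMM (0.20, adjusted p = 0.0598).

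KRT19, the smallest keratin and a marker of ductal and simple epithelia, had the largest fold difference of the tested 7, at a low level. It had 50, 54 and 31 reads in KO libraries, or 6.03, 6.06 and 5.24 CPM, against 26, 6 and 10 reads in control libraries, or 2.84, 0.63 and 1.12 CPM. All KO libraries were above all control libraries, among which replicate 1 was the highest. The log2 fold change was 1.91 ± 0.44 (adjusted p = 0.00083, edgeR), and it was 2.71 without control replicate 1. KRT7, the type II keratin often found beside KRT19, was at 5.18, 5.61 and 5.58 CPM in KO and at 6.0, 2.63 and 3.48 CPM in control libraries. The groups overlapped through control replicate 1, and the difference of 0.43 ± 0.31 did not pass the threshold (adjusted p = 0.252, edgeR). Without control replicate 1 it was 0.83 and passed (adjusted p = 0.0433), and without control replicate 2 it was 0.20 (adjusted p = 0.652). Control replicate 1 was the highest control library for KRT8, KRT18, KRT10 and KRT13 as well.

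KRT10, the type I keratin of the spinous and granular layers, was at 122, 92.6 and 101 CPM in KO libraries, against 61.9, 57.1 and 50.6 CPM in control libraries. The lowest KO library was above the highest control library. The log2 fold change was 0.90 ± 0.11 (adjusted p = 6.7e-07, edgeR) and 0.53 with the correction (adjusted p = 0.000132). KRT1, the usual type II partner of KRT10, had 0, 0 and 2 reads in KO, 4, 0 and 0 reads in OE and none in control libraries, too few to test. The antisense gene KRT10-AS1 moved the same way as KRT10, with a mean of 34.6 ± 1.29 CPM in KO, 11.4 ± 2.57 CPM in OE and 17.3 ± 2.19 CPM in control libraries (SD, n = 3 each). Its log2 fold change was 1.00 ± 0.16 in KO (adjusted p = 1.09e-05, and 0.55 with the correction, adjusted p = 0.00421) and -0.59 ± 0.16 in OE (adjusted p = 0.0128), both against control (edgeR).

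KRT13 and KRT80 ran the other way. KRT13, the type I keratin of non-keratinising linings and of keratinocytes in culture, was at 8058, 7328 and 7186 CPM in KO libraries, against 9712, 8921 and 8958 CPM in control libraries. All KO libraries were below all control libraries, and the log2 fold change was -0.29 ± 0.09 (adjusted p = 0.00684, edgeR). KRT80 was at 546, 516 and 476 CPM in KO and at 634, 608 and 654 CPM in control libraries, again without overlap. Its log2 fold change was -0.30 ± 0.08 (adjusted p = 0.00415, edgeR), -0.19 with the correction (adjusted p = 0.0424) and 0.01 with coding transcript length (adjusted p = 0.931), so its direction depends on the length used. KRT23 was close to the floor, with 2, 8 and 2 reads in KO, 10, 4 and 8 reads in OE and 0, 9 and 6 reads in control libraries. Summed over libraries it had 0.490 CPM, unscaled, in KO (exact 95% Poisson interval 0.253 to 0.856), 0.695 in OE (0.435 to 1.05) and 0.556 in control cells (0.311 to 0.917), and no difference was detectable at this depth. The intervals cover counting error only and take each read as independent, so they are too narrow if both reads of a pair were counted.

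**Figure D2:**
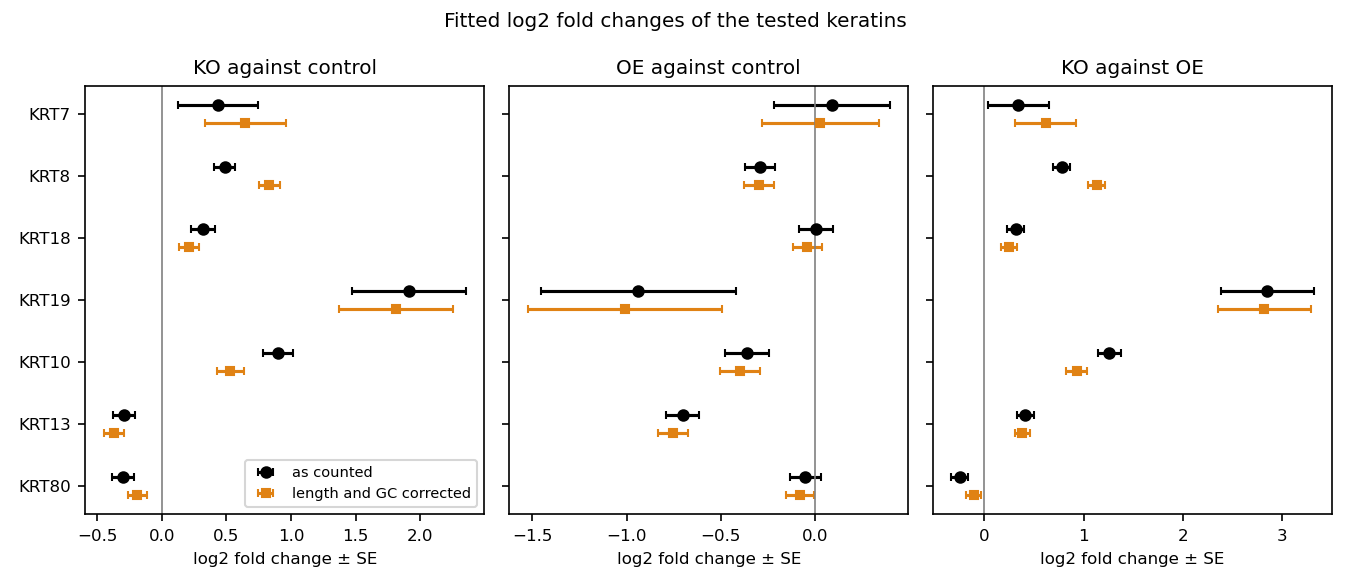
Fitted log2 fold changes with their SE for the 7 tested keratins in KO against control, OE against control and KO against OE, as counted (black circles) and after the length and GC correction (orange squares). The x axes differ between panels. In KO against control the correction took KRT8 to 0.83 and KRT10 to 0.53, and in OE against control the black and orange points lay close together. With coding transcript length in place of exon length, not drawn, KRT8 was at 0.49 and KRT10 at 0.72 in KO against control.

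In OE cells none of the 7 tested keratins was called higher than in control cells, and 3 were called lower, KRT8, KRT10 and KRT13. Over all genes 18.6% were called in this comparison, 9.34% lower and 9.28% higher, and 21.2% were called after the correction. The comparison uses the same 3 control libraries as the one above. KRT13 was at 6470, 5096 and 5381 CPM in OE libraries, all below the 8921 to 9712 CPM of control libraries. Its log2 fold change was -0.70 ± 0.09 (adjusted p = 2.82e-06, edgeR). KRT8 was at 687, 652 and 657 CPM in OE, against 770 to 903 CPM in control libraries, and KRT10 was at 47.1, 37.9 and 46.7 CPM in OE, against 50.6 to 61.9 CPM in control libraries. Neither gene overlapped between the groups. The log2 fold change was -0.29 ± 0.08 for KRT8 (adjusted p = 0.0129) and -0.36 ± 0.12 for KRT10 (adjusted p = 0.0318, edgeR for both). Both calls depended on single libraries. The KRT8 call was lost without control replicate 1 (-0.21, adjusted p = 0.115) and without OE replicate 2 (-0.27, adjusted p = 0.0543). The KRT10 call was lost without control replicate 1 (-0.29, adjusted p = 0.158), control replicate 2 (-0.35, adjusted p = 0.0954) or OE replicate 2 (-0.27, adjusted p = 0.177).

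The remaining keratins overlapped between OE and control libraries. KRT18 was at 230, 265 and 305 CPM in OE, a wide spread around the control values (0.01 ± 0.09, adjusted p = 0.978, edgeR). KRT80 was at 683, 588 and 557 CPM in OE (-0.05 ± 0.08, adjusted p = 0.727), and KRT7 was at 4.54, 3.73 and 4.59 CPM (0.09 ± 0.31, adjusted p = 0.882). KRT19 had 6, 8 and 12 reads in OE libraries, or 0.66, 0.81 and 0.88 CPM, and its log2 fold change of -0.94 ± 0.52 did not pass (adjusted p = 0.229, edgeR). Without control replicate 1 it was -0.14. A p above the threshold does not show equal levels.

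KO and OE cells were also compared with each other, as a contrast of the same fit of 9 libraries. Here 5 of the 7 keratins were higher in KO cells, KRT80 was lower and KRT7 did not pass, beside 57.6% of all genes called, 28.6% higher and 29.0% lower. After the correction 53.2% of genes were called, and the 7 keratins gave 5 calls, all higher. Without TMM the split over all genes was 39.3% higher, against 49.6% with it. KRT19 differed most, with 5.24 to 6.06 CPM in KO against 0.66 to 0.88 CPM in OE libraries (log2 fold change 2.85 ± 0.47, adjusted p = 1.65e-05, edgeR). KRT10 followed at 1.26 ± 0.12 (adjusted p = 2.63e-09), then KRT8 at 0.78 ± 0.08 (adjusted p = 2.34e-08) and KRT13 at 0.41 ± 0.09 (adjusted p = 0.000259). KRT18 was higher by 0.31 ± 0.09 (adjusted p = 0.00468), and missed the threshold without TMM (0.18, adjusted p = 0.0815) and with coding transcript length (0.12, adjusted p = 0.145). KRT80 was at -0.25 ± 0.08 (adjusted p = 0.0138), with no call after the correction (-0.11, adjusted p = 0.239), without KO replicate 3 (-0.20, adjusted p = 0.0675) or without OE replicate 1 (-0.16, adjusted p = 0.109). With coding transcript length its sign turned (0.08, adjusted p = 0.357).

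The make-up of the keratin pool was described by counts within each library. The 8 keratins took 32.3%, 32.1% and 31.6% of all keratin counts in KO libraries, 19.9%, 17.4% and 16.3% in OE libraries and 26.6%, 25.3% and 25.1% in control libraries. The groups did not overlap, and each difference had p = 0.1 in a two-sided exact permutation test, the smallest value that 3 against 3 libraries allow. Without KRT13 the shares were 6.99% ± 0.226 in KO, 3.93% ± 0.207 in OE and 4.16% ± 0.157 in control libraries (SD, n = 3 each). All keratins together made up 2.84% ± 0.129 of gene counts in KO, 4.19% ± 0.210 in OE and 4.36% ± 0.0727 in control libraries. The larger share in KO libraries was therefore a share of a smaller pool, and as a share of all gene counts the 8 keratins came to 0.908% ± 0.0503 in KO, 0.747% ± 0.0788 in OE and 1.12% ± 0.0534 in control libraries. KRT13 gave most of these counts, 78.1% ± 0.979 in KO, 77.9% ± 1.54 in OE and 83.8% ± 0.198 in control libraries.

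Count ratios of a few keratins were compared between groups, 2 of them between keratins of the same simple epithelia and 1 between a suprabasal and a basal type I keratin. The log2 ratio of KRT8 to KRT18 was 1.67, 1.75 and 1.92 in KO libraries, 1.58, 1.30 and 1.10 in OE libraries and 1.68, 1.60 and 1.55 in control libraries. KO overlapped control and OE overlapped control (p = 0.2 each, exact permutation test), while KO lay above OE (p = 0.1). The log2 ratio of KRT7 to KRT19 averaged -0.08 ± 0.15 in KO, 2.39 ± 0.27 in OE and 1.54 ± 0.45 in control libraries (SD, n = 3 each). The groups did not overlap (p = 0.1 for each of the 3 comparisons, exact permutation test, adjusted over 9 ratio tests 0.129). KRT19 had only 6, 8 and 12 reads in OE and 26, 6 and 10 reads in control libraries, so this ratio rests on few reads. The log2 ratio of the suprabasal KRT10 to the basal KRT14 was -4.62, -4.92 and -4.88 in KO, -7.20, -7.49 and -7.38 in OE and -6.51, -6.54 and -6.74 in control libraries. KO libraries were highest and OE libraries lowest, with no overlap (p = 0.1 for each of the 3 comparisons, exact permutation test, adjusted over 9 ratio tests 0.129). KRT14 itself was at 2929 ± 109 CPM in KO, 7199 ± 529 CPM in OE and 5453 ± 174 CPM in control libraries (SD, n = 3 each), so this ratio combines a difference in KRT10 with an opposite one in KRT14.

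**Figure D3:**
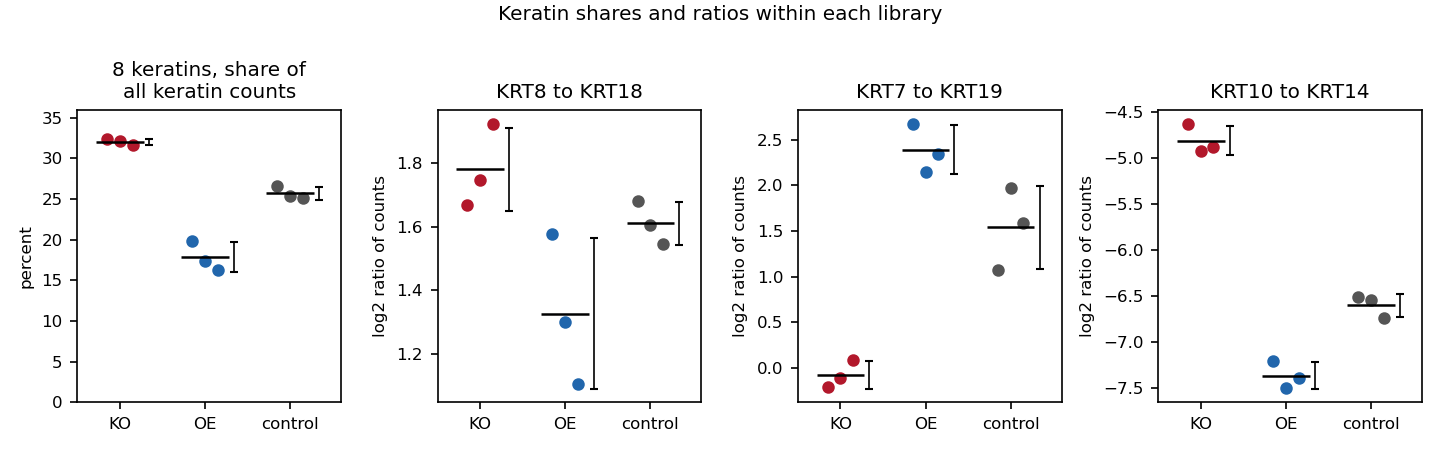
Share of the 8 keratins among all keratin counts in percent, and log2 count ratios of KRT8 to KRT18, KRT7 to KRT19 and KRT10 to KRT14, for KO, OE and control libraries. Points are libraries, lines are means and bars are ± SD (n = 3), and the ratio axes do not start at 0. The share was 32.0% in KO, 17.8% in OE and 25.7% in control libraries.

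Among the 47 other keratins on the list, 14 could be tested. Against control, 2 were higher, 9 were lower and 3 did not pass in KO, and 4 were higher, 6 lower and 4 not past in OE. Over all genes 26.0% were higher and 25.9% lower in KO, and 9.28% higher and 9.34% lower in OE. The median log2 fold change of the 14 in KO was -0.86. The basal KRT5 averaged 5850 CPM in KO, 10811 CPM in OE and 11016 CPM in control libraries. It was lower in KO by -0.91 ± 0.08 (adjusted p = 1.49e-09) and did not pass in OE (-0.03 ± 0.08, adjusted p = 0.854, edgeR). The hair keratin KRT81 was higher in KO by 1.05 ± 0.09 (adjusted p = 1.06e-09) and lower in OE by -0.59 ± 0.09 (adjusted p = 2.54e-05, edgeR), the same signs as KRT8 and KRT10. KRT6A, a type II keratin of activated keratinocytes, was lower in KO by -1.59 ± 0.08 (adjusted p = 1.26e-12) and did not pass in OE (0.22 ± 0.08, adjusted p = 0.0607). KRT24, a type I keratin, averaged 4.38 CPM in KO, 64.3 CPM in OE and 23.4 CPM in control libraries, a log2 fold change of -2.42 ± 0.18 in KO (adjusted p = 2.47e-10) and 1.46 ± 0.13 in OE (adjusted p = 5.7e-08, edgeR). KRT4, the type II partner of KRT13, was at 150 CPM in KO, 26.8 CPM in OE and 139 CPM in control libraries on average. It was lower in OE by -2.37 ± 0.10 (adjusted p = 7.76e-14) and did not pass in KO (0.11 ± 0.09, adjusted p = 0.321, and -0.04 with the correction, edgeR), while KRT13 was lower in both. KO against OE, KRT4 differed by 2.48 ± 0.10 (adjusted p = 6.29e-15) and KRT13 by 0.41 ± 0.09.

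**Figure D4:**
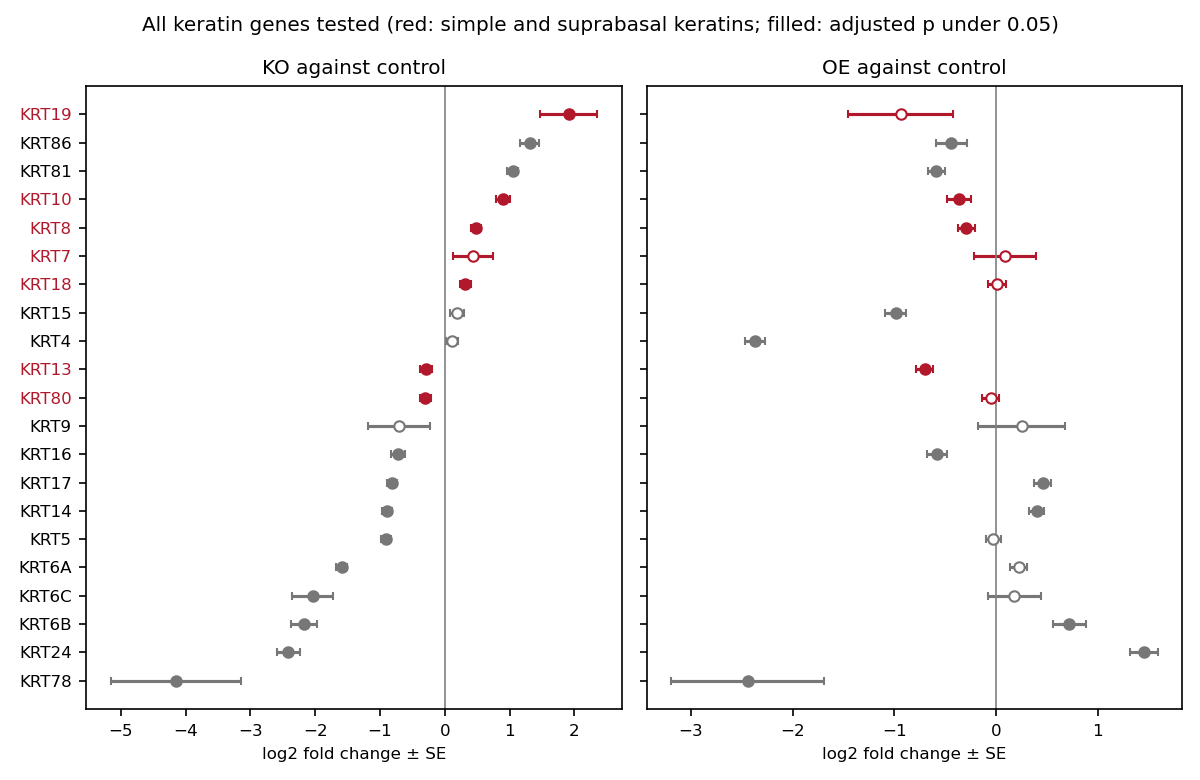
Log2 fold changes with SE of the 21 keratin genes tested, in KO against control and OE against control, ordered by the value in KO. Red marks the simple and suprabasal keratins, filled points passed an adjusted p under 0.05 and open points did not, and the x axes differ. KRT19, KRT10, KRT8 and KRT18 lay right of 0 in KO, and KRT6A and KRT24 lay left of it.

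The mRNAs of most tested proteins that anchor or modify keratin filaments were lower in KO cells. Of 21 tested members of this list of 24, 2 were higher, 14 lower and 5 not past in KO, and 3 were higher, 1 lower and 17 not past in OE, each against control, beside 25.9% of all genes lower in KO and 9.34% in OE. The median log2 fold change of the list in KO was -0.54, and -0.23 after the length and GC correction, which left 13 members lower. The linkers are long genes and their values shrank with the correction. Plectin (PLEC), which ties keratins to hemidesmosomes, was at 533 CPM in KO and 2120 CPM in control libraries on average (log2 fold change -1.99 ± 0.12, adjusted p = 6.24e-12, edgeR; -0.98 corrected). Desmoplakin (DSP), which anchors keratins at desmosomes, was lower by -1.57 ± 0.10 (adjusted p = 1.99e-11), envoplakin (EVPL) by -1.62 ± 0.10 (adjusted p = 7.24e-12) and epiplakin (EPPK1) by -2.82 ± 0.18 (adjusted p = 3.02e-11, edgeR). The corrected values of these 3 were -1.22, -1.04 and -1.80. None of the 4 passed in OE.

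Other genes of suprabasal cells differed in both directions. Of 16 tested members of a list of 26, 4 were higher, 7 lower and 5 not past in KO, and 2 were higher, 3 lower and 11 not past in OE, beside the 51.9% of all genes called in KO and 18.6% in OE. The median log2 fold change of the 16 in KO was -0.51, and -0.91 after the correction, which left 4 higher and 8 lower. TGM1, a transglutaminase that links envelope proteins in the outer layers, averaged 25.8 CPM in KO, 107 CPM in OE and 85.6 CPM in control libraries. Its log2 fold change was -1.72 ± 0.11 in KO (adjusted p = 1.11e-11) and 0.32 ± 0.09 in OE (adjusted p = 0.019, edgeR), both opposite in sign to KRT10. Periplakin (PPL), a partner of envoplakin, was lower in KO by -1.48 ± 0.10 (adjusted p = 8.29e-11), and the fatty acid binding protein FABP5 by -1.39 ± 0.13 (adjusted p = 9.55e-09, edgeR), and neither passed in OE. The kallikrein proteases KLK5 and KLK7, named after their values were seen, had the signs of KRT10. KLK5 was higher in KO by 0.84 ± 0.08 (adjusted p = 1.06e-08, and 0.49 with the correction) and lower in OE by -0.37 (adjusted p = 0.00205, edgeR). KLK7 was higher in KO by 1.12 ± 0.12 (adjusted p = 4.15e-08) and lower in OE by -0.50 (adjusted p = 0.0047, edgeR). DMKN and CASP14 were the other members called higher in KO.

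The genes whose pattern over the 9 libraries was nearest to a keratin were ranked by the root mean square distance of centred log2 CPM among 11820 genes. These values were not corrected for length and GC content, and the part of the length trend in this ranking was not tested. For KRT8 the nearest were PCNP (0.0486), UBAC2 and SLC25A46, and for KRT18 they were FBXO9 (0.0531), DENR and MRPL37. For KRT10 they were RPS28 (0.087), MGST1 and UFC1, and for KRT13 MINDY1 (0.081), JAK2 and TRIM38. The low keratins had looser neighbours, UBE2E1 at 0.156 for KRT7 and PDE9A at 0.324 for KRT19. No other keratin was among the 3 nearest genes of KRT7, KRT8, KRT18, KRT19, KRT10 or KRT13.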

How the data were processed

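The authors deposited raw counts per gene, which were made by featureCounts 1.5.2 with the Ensembl release 101 annotation of GRCh38, per the file headers. The libraries were paired-end and from poly-A selected RNA, per the labels' protocols. The submitters' processing notes also list FastQC, DESeq2, HISAT2 (1.03) and another version of featureCounts (0.1.0). No setting for pairs, strand or multi-mapping appears in the header's command, so mates may be counted separately.

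The 8 keratins and all gene lists were chosen with earlier results of these data known. Counts were fitted with edgeR 4.0.16 in R 4.3.3 (TMM, filterByExpr with a minimum count of 10, 13390 genes, all 9 libraries, group as the only term, quasi-likelihood test, two-sided), with Benjamini-Hochberg adjusted p under 0.05 as the threshold and a common biological coefficient of variation of 10.2%. CPM are TMM-scaled. The correction entered, in each library, a loess surface (span 0.3) over log2 exon length and GC content as an offset. GC content was known for 99.6% of tested genes, from GENCODE 29, and the coding transcript lengths came from the same release. Shares and ratios used raw counts and exact permutation tests, and likeness used log2 CPM with a prior count of 2. Promoter letters are from RefSeq, which gave a window for 2 of the 8 keratins. The fit was checked on simulated data. Alternatives were DESeq2 1.42.0 (size factors and Wald test), limma 3.58.1 (voom), no TMM, other filters, fits of 2 groups, pseudogene counts added, the replicate number as a block, each library left out, and, chosen after seeing the data, coding transcript length. The text names the 8 keratins, KRT1, KRT5, KRT14 and SGPL1 whatever their result, up to 4 called members of each list by smallest p in either comparison with control, and for each tested keratin the 3 protein-coding genes of nearest pattern, which for KRT80 are not reported here. KRT10-AS1 is named for its overlap with KRT10. Outside these rules, KLK5, KLK7, DMKN and CASP14 were named after their values were seen. Cell type markers are named where they had no reads or made up most of a sum. Libraries of a group differed beyond the sampling noise of independent reads (chi-square per degree of freedom 2.74 to 11.7). That noise is larger if mates were counted separately, so the size of the excess is not known. Columns of other series numbered 0.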

Additional observations from a re-analysis of the deposited data

How the results depend on the processing

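Under the alternatives run, the calls of KRT8, KRT10, KRT13 and KRT19 in KO against control and in KO against OE, and that of KRT13 in OE against control, held in direction and at the threshold, as did the side of the threshold in ratio and share tests, none of which can pass at 3 against 3. The difference in share between KO and control cells turned from 6.31 percentage points of keratin counts to -0.213 percentage points of all gene counts. Reversals among fold changes concerned small values. KRT18 in OE against control was -0.042 with the length and GC offset, -0.0407 with coding transcript length and -0.0433 with both the replicate block and the offset, and ranged from -0.094 to 0.10 with a library left out. KRT7 in OE against control ranged from -0.14 to 0.49 and KRT80 from -0.14 to 0.018 with a library left out, and KRT19, which kept its sign, from -1.31 to -0.14. With coding transcript length KRT80 was at 0.0089 in KO against control and 0.076 in KO against OE. Numbers of genes called stayed within 1.5 times of 6951 for KO, 2493 for OE (each against control) and 7711 for KO against OE, ranging over left-out libraries from 6056 to 7201 for KO, 1729 to 2585 for OE and 6893 to 7673 for KO against OE. With the replicate block the counts were 6907 for KO, 2468 for OE and 7669 for KO against OE. Libraries of the same number did not deviate together (correlations from -0.077 to 0.066, against -0.086 to 0.109 for different numbers). No pairing by number was therefore detected, and the labels do not say whether there was one. The block changed no call of a keratin described here unless it was joined to the offset, which ended the KRT80 call in KO against OE (-0.10, adjusted p = 0.209, edgeR). Depth limits KRT7, KRT19 and KRT23, which had at most 63 reads in a library. With a minimum count of 50 KRT7 and KRT19 were not tested, nor was KRT19 when only OE and control libraries were fitted. The cause of these changes was not tested.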

Other observations

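Genes that mark simple epithelia beside their keratins differed in both directions. Of 23 tested members of a list of 24, 10 were higher, 7 lower and 6 not past in KO, and 4 were higher, 7 lower and 12 not past in OE, each against control, beside the 51.9% of all genes called in KO and 18.6% in OE. The median log2 fold change was 0.09 in KO and -0.08 in OE. With the length and GC correction 7 were higher and 6 lower in KO (median -0.009), and 4 were higher and 10 lower in OE (median -0.14). The secretory protein AGR2 averaged 94.0 CPM in KO, 17.0 CPM in OE and 41.3 CPM in control libraries, with log2 fold changes of 1.18 ± 0.15 in KO (adjusted p = 5.89e-07, and 0.73 with the correction) and -1.28 ± 0.16 in OE (adjusted p = 4.68e-06, edgeR). The epithelial ETS factor ELF3 averaged 248 CPM in KO, 118 CPM in OE and 200 CPM in control libraries, with 0.31 ± 0.11 in KO (adjusted p = 0.0203, and 0.67 with the correction) and -0.77 ± 0.11 in OE (adjusted p = 2.22e-05, edgeR). The splicing regulator ESRP2 and the transcription factor GRHL2 were lower in KO by -0.74 ± 0.09 (adjusted p = 6.77e-07, and -0.46 with the correction) and -0.67 ± 0.09 (adjusted p = 1.56e-06, edgeR), and neither passed in OE (adjusted p = 0.749 for ESRP2 and 0.0616 for GRHL2), although GRHL2 passed in OE with the correction (-0.24, adjusted p = 0.03).

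Transcription factors known to act on keratin genes were all measured, and 6 of 29 were higher, 9 lower and 14 not past in KO, beside 5 higher, 9 lower and 15 not past in OE. With 51.9% of all genes called in KO, the 15 calls of 29 there were close to the share over all genes. In OE 18.6% of all genes were called, 9.28% higher and 9.34% lower, and the share of the list was larger. After the length and GC correction 6 were higher and 7 lower in KO, and 5 higher and 10 lower in OE. Over all genes 45.2% in KO and 21.2% in OE were then called. The list was chosen with earlier results known, and its larger share in OE was not tested. The AP-1 subunit FOS averaged 110 CPM in KO, 12.8 CPM in OE and 14.7 CPM in control libraries, a log2 fold change of 2.90 ± 0.12 in KO (adjusted p = 4.92e-14, edgeR). GRHL3, a factor of terminal differentiation, was lower in KO by -0.82 ± 0.10 (adjusted p = 3.03e-07). NOTCH1, the receptor that drives the exit from the basal layer, was lower in KO by -0.77 ± 0.10 (adjusted p = 1.38e-06), and this call was lost after the length and GC correction (-0.05, adjusted p = 0.656, edgeR). None of these 3 passed in OE.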
